A study of Mus musculus with 8 samples.

Results

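NMDA and AMPA receptors are the ionotropic glutamate receptors that carry most fast excitatory transmission onto striatal neurons. The 10 genes described here were chosen by name: 6 encode NMDA receptor subunits (Grin1, Grin2a, Grin2b, Grin2c, Grin2d and Grin3a) and 4 encode AMPA receptor subunits (Gria1, Gria2, Gria3 and Gria4). All 10 were among the 32285 genes counted. The RNA of single striatal nuclei was counted in 32 mice aged 12 weeks, 4 of each of 8 inbred strains. Of these, 3 are wild-derived (CAST/EiJ, PWK/PhJ and WSB/EiJ) and 5 are classical laboratory strains (A/J, NOD/ShiLtJ, 129S1/SvImJ, C57BL/6 and NZO/HlLtJ). The labels and the deposited table of nuclei name different substrains of C57BL/6 (C57BL/6J and C57BL_6NJ), so the substrain is not named here. The mice carried no transgene or treatment in the labels, and each of 4 batches was a pool of nuclei from 1 mouse of every strain, with 4 males and 4 females per batch. The sex of each mouse was not used here.

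A receptor of the NMDA class is a tetramer that needs GluN1, encoded by Grin1, together with GluN2 subunits (Grin2a to Grin2d), which set its kinetics, magnesium block and glutamate affinity, or GluN3 subunits such as that of Grin3a, which lower calcium permeability. AMPA receptors are tetramers of GluA1 to GluA4, encoded by Gria1 to Gria4, and the edited GluA2 subunit makes them impermeable to calcium. Striatal projection neurons, which express dopamine receptor Drd1 or Drd2, receive glutamate from cortex and thalamus through both classes.

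The deposited annotation placed 55672 nuclei in 18 clusters. They held a median of 4329 unique molecular identifiers (UMIs, which mark single captured RNA molecules), and each mouse gave 944 to 4416 nuclei. The batches had 43538698 to 77698312 UMIs in annotated nuclei, with batch 3 the shallowest. Of 54141 barcode sequences, 1517 occurred in more than 1 batch, and nuclei were therefore told apart by batch and barcode. The cluster names are the deposited ones. Drd1 was highest in Drd1+ neurons at 219 CPM (counts scaled to a common library total), against 10.2 in Drd2+ neurons, and Drd2 was highest in Drd2+ neurons at 437. All 4 markers of eccentric Drd1+ neurons (Otof, Casz1, Tshz1 and Col11a1) were highest in the cluster named Drd1+ neuron_2. Chat was highest in Chat+ interneurons, Sst and Npy in Sst+ interneurons, Mbp, Mog and Mag in oligodendrocytes, and the 4 astrocyte markers in astrocytes. Tac1 was highest in Drd1+ neuron_2 (612 CPM, 310 in Drd1+ neurons), and Ppp1r1b in the small Unknown_2 cluster (183 CPM, 160 in Drd1+ neurons). Of the non-neuronal markers, 2 went to other clusters than their names imply: Pdgfra was highest in fibroblasts (347 CPM, 298 in the Polydendrocyte/Oligodendrocyte cluster) and Rgs5 in endothelium rather than mural cells.

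On the mouse genome (GRCm38.p6, RefSeq), the members lie on 9 chromosomes. Grin1 lies at chr2:25291177-25319187, Grin2a at chr16:9567901-9996083, Grin2b at chr6:135713221-136173615, Grin2c at chr11:115249169-115267297, Grin2d at chr7:45831883-45871194 and Grin3a at chr4:49661611-49846023. Gria1 lies at chr11:57011571-57330244, Gria2 at chr3:80681450-80804227, Gria3 on the X chromosome at chrX:41400819-41678601 and Gria4 at chr9:4417893-4796234. Where genes overlap, reads may be shared between them. Grin1os, a long noncoding RNA within the Grin1 locus, had 2360 counts against 101328 for Grin1, and Gm14330 within Grin2b had 6750 against 378159. The strand setting of the counting is not given in the sources used here. Levels are compared between clusters and strains for 1 gene at a time, not between genes, because the number of captured molecules depends on gene length and sequence.

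Of the 10 members, 5 had a promoter in the RefSeq table, and the 250 bases before the start that this table gives are shown for 3 that the results turn on: Grin2c for its level in astrocytes, Gria2 for its breadth over neurons and glia, and Gria4 for its strain differences. The table's start need not be the outer end of the gene span given above: the Gria2 window lies inside that span, the Grin2c window overlaps its end, and the Gria4 window lies just outside it. The letters are on the minus strand, and capitals mark the motifs found: a GC box (GGGCGG, the site of Sp1-like factors) in Grin2c, and the right part of an RE1 element (GGACAGC, here read on the other strand) in Gria2, RE1 being the silencer bound by REST. Gria4 held none of the 5 motifs searched, so no letter is in capitals.
Grin2c, chr11:115267244-115267493: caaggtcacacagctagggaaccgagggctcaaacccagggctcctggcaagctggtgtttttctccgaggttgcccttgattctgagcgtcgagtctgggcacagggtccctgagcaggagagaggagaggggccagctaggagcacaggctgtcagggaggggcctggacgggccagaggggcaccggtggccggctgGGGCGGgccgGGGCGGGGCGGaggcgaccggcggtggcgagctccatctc
Gria2, chr3:80802836-80803085: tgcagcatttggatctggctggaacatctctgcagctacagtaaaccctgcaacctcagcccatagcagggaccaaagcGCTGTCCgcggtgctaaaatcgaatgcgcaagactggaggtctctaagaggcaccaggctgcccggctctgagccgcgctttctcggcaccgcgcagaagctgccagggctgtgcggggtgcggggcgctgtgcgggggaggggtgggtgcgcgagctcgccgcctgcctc
Gria4, chr9:4796235-4796484: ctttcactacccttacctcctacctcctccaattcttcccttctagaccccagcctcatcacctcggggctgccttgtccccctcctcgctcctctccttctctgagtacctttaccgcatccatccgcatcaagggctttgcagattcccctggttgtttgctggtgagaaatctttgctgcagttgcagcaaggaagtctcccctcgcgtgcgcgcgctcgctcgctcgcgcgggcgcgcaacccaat
Motifs were searched on both strands. The GC box had 3 matches in Grin2c, some of which overlap, and 32.7% of 32851 promoters held at least 1. The GGACAGC part was found once in Gria2, 171 bases before the table's start and so within the gene span, and in 5.28% of promoters. The left part of RE1 (TTCAGCACC), TGACG (the core of the cAMP response element) and CACGTG (an E-box) had no match in these 3 windows and were found in 0.301%, 17.8% and 6.02% of promoters. An accessible-chromatin peak of the authors' single deposited list overlapped the Grin2c and Gria2 windows and not the Gria4 window, and 51.7% of all promoters overlapped one. Accessibility by strain was not analysed here.

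In projection neurons the members fell into a broadly detected set (Grin1, Grin2a, Grin2b and all 4 Gria genes) and a set at low level (Grin2c, Grin2d and Grin3a). Levels are CPM of counts summed per cluster and batch, given as mean ± SD over the 4 batches, and a share of nuclei is the share with at least 1 UMI after thinning each nucleus to 1000 UMIs. Macrophages, which should lack neuronal receptors, serve as the background. Clusters other than neurons also held neuronal RNA, and whether it came from free RNA, doublets or misplaced neurons was not tested. Over 7 neuronal reference genes, the median level relative to projection neurons was 5.88% in macrophages, 6.22% in oligodendrocytes and 7.69% in astrocytes, but 37.3% in endothelium, 38.9% in ependyma and 70.6% in mural cells. Single genes spread widely, from 3.48% to 83.2% in macrophages, 3.20% to 78.0% in oligodendrocytes and 3.25% to 83.2% in astrocytes, with Ppp1r1b the highest in each.

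Grin1, the obligatory subunit, was highest in Drd1+ neuron_2 at 551 ± 90.3 CPM (SD, n = 4), followed by Drd2+ neurons at 484 ± 61.5 and Drd1+ neurons at 481 ± 63.9. No neighbours in its order over the 18 clusters were separated beyond the range of batches. Macrophages had 27.9 ± 4.19 CPM and 2.75% of nuclei with a UMI.

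Grin2b, the subunit of slow, ifenprodil-sensitive receptors, was highest in Drd1+ neurons at 1843 ± 52.2 CPM and Drd2+ neurons at 1751 ± 66.0, then in both Slc17a7+ clusters at 1696 ± 109 and 1574 ± 71.0. It was lower in Chat+ (1259 ± 112), Sst+ (1118 ± 118), Drd1+ neuron_2 (1098 ± 86.5) and Nxph1+ (997 ± 129) nuclei. Grin2a, which gives faster decaying receptors, ran in another order. It led in Drd1+ neuron_2 at 1108 ± 116 CPM, the Slc17a7+ neuron_2 cluster at 973 ± 133 and the Slc17a7+ cluster at 854 ± 93.6, and the batches of these 3 clusters did not overlap those of the other named neuron clusters. The Unknown_2 cluster, with 20 Grin2a counts in all, had 1 batch at 1053 CPM. Drd2+ neurons had 627 ± 60.1, Drd1+ neurons 616 ± 55.3, Sst+ interneurons 440 ± 99.5 and Nxph1+ interneurons 286 ± 25.5.

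Cholinergic Chat+ interneurons stood apart in Grin2a. Their 120 nuclei held 13 Grin2a counts, 12.9 ± 2.50 CPM, and 1.40% of nuclei had a UMI after thinning, beside 11.3 ± 3.47 CPM and 1.17% in macrophages. That is near the macrophage level, although Grin2b in the same nuclei was at 1259 CPM. Without thinning, 10.0% of Chat+ nuclei had a Grin2a UMI (exact 95% binomial interval 5.28% to 16.8%, counting error only).

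The count ratio of Grin2a to Grin2b therefore ranged widely. It was 0.0101 in Chat+ nuclei, 0.288 in Nxph1+, 0.333 in Drd1+, 0.357 in Drd2+ and 0.388 in Sst+ nuclei, 0.541 and 0.571 in the Slc17a7+ clusters and 1.01 in Drd1+ neuron_2. These are ratios of counts and say nothing of equal amounts of protein. The ratio places the eccentric-marker cluster and the Chat+ cluster at opposite ends of the named neuron clusters.

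Grin2c, a subunit known from cerebellum and astrocytes, was found mainly in astrocytes, where the 4 batches gave 239, 241, 207 and 180 CPM (2472 counts) and 18.9% of nuclei had a UMI. The next cluster, Unknown_2, had 23.2 CPM from 3 counts, and all others were at or below 9.76. Drd1+ and Drd2+ neurons had 1.27 and 1.48 CPM, and 0 of 120 Chat+ nuclei had a UMI, which allows a level of up to 3.11 CPM. Grin2d, a subunit known from interneurons, was highest in Nxph1+ (30.4 ± 5.49 CPM, 166 counts), Chat+ (29.8 ± 13.8, 31 counts) and Sst+ nuclei (29.5 ± 6.75, 23 counts). These 3 were not separated from one another. Apart from fibroblasts at 14.3 ± 13.0 CPM from 4 counts, every other cluster was at or below 7.74, macrophages being at 5.45.

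Grin3a formed a ladder of 4 clusters whose batches did not overlap: Sst+ interneurons at 520 ± 71.3 CPM, Chat+ interneurons at 325 ± 54.5, the Polydendrocyte/Oligodendrocyte cluster at 204 ± 25.6 and Nxph1+ interneurons at 103 ± 24.6. Astrocytes had 53.5 ± 1.67 and Drd1+ neuron_2 49.6 ± 6.59. Drd1+ and Drd2+ neurons had 3.58 and 3.04 CPM (388 and 252 counts), and macrophages 3.27 (13 counts). Macrophage nuclei were shallower, with a median of 1432 UMIs against 6505 and 5953. They also held more RNA of other cells, such as Sst at 87.5 CPM against 21.1 in Drd1+ neurons. Their level therefore need not be the background of projection neurons.

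Among the AMPA subunits, Gria4, which forms fast-gating receptors, was highest in Nxph1+ interneurons at 2039 ± 350 CPM, with 72.7% of nuclei. The Slc17a7+ neuron_2 cluster had 1232 ± 219, Chat+ interneurons 917 ± 194, Drd1+ neurons 692 ± 13.9, Drd2+ neurons 562 ± 14.4 and Sst+ interneurons 542. Oligodendrocytes had 217 ± 12.3 CPM and 15.5% of nuclei, against 1.95% in macrophages and 1.32% in astrocytes. Gria1, the subunit phosphorylated in dopamine-dependent plasticity, was also highest in Nxph1+ interneurons at 1411 ± 107 CPM, above the next cluster without overlap. Drd2+, Drd1+ and Drd1+ neuron_2 nuclei had 1078 ± 10.2, 1061 ± 17.7 and 1048 ± 63.0, and Chat+ nuclei 377.

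Gria2, whose edited form blocks calcium entry, was found in all neuron clusters, from 2511 ± 441 CPM in Slc17a7+ neurons through 2195 ± 286 in Drd2+ and 2177 ± 269 in Drd1+ neurons to 1762 in Sst+ interneurons. Chat+ interneurons were the low neurons at 539 ± 176. Gria3 was highest in Slc17a7+ neurons at 1255 ± 164 CPM, with 846 ± 41.2 in Drd2+ and 793 ± 36.4 in Drd1+ neurons and 254 in Sst+ interneurons. Among the named neuron clusters the Gria1 to Gria2 count ratio was lowest in Slc17a7+ neurons (0.254) and highest in Nxph1+ (0.756) and Chat+ interneurons (0.727), with 0.490 in Drd1+ and 0.494 in Drd2+ neurons.

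**Figure D1:**
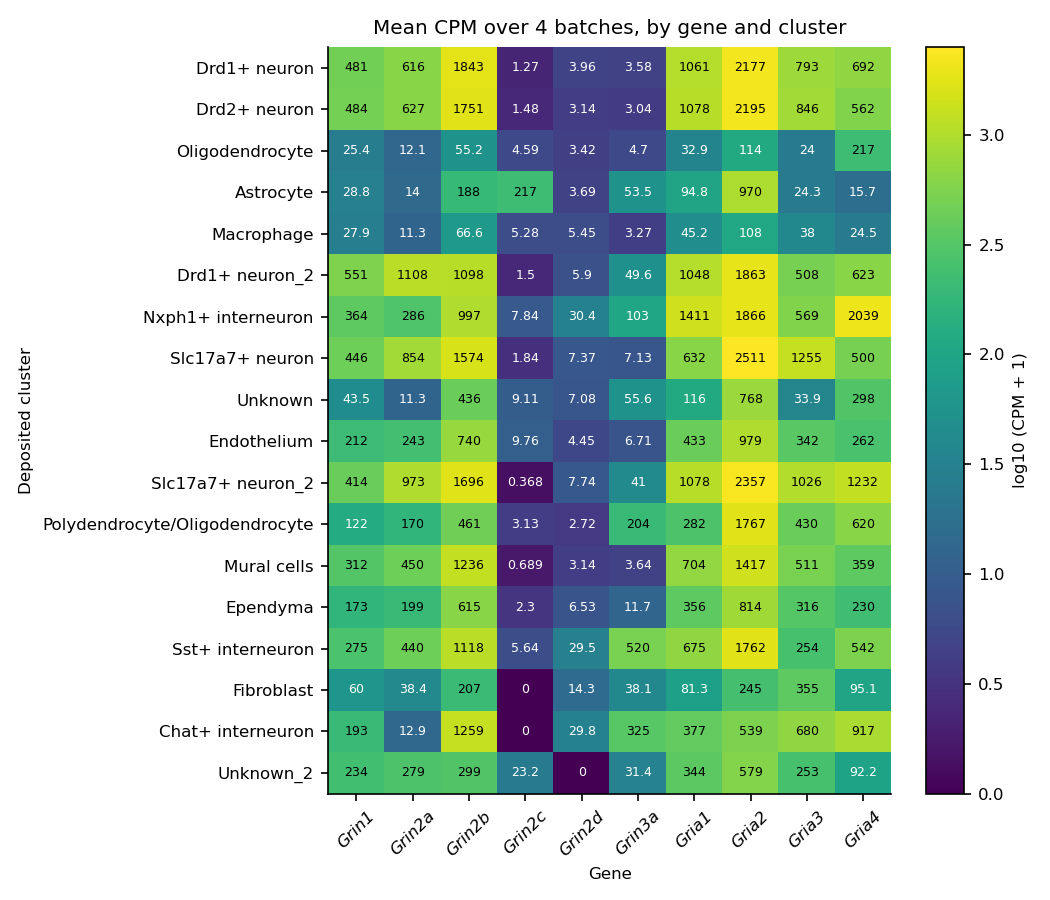
Level of each subunit in the 18 clusters, as a heatmap on a log scale, with the mean CPM over the 4 batches printed in each cell. Grin2c stands out in astrocytes (217 CPM), Grin3a in Sst+ interneurons (520) and Gria4 in Nxph1+ interneurons (2039).

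Glial clusters were read against the same reference genes. In the Polydendrocyte/Oligodendrocyte cluster, which carries precursor markers, neuronal reference genes stood at a median of 29.8% (28.9% to 49.8%) of their level in projection neurons. In this cluster Gria4 stood at 97.3%, Gria2 at 82.4% and Gria3 at 53.8% of theirs. Among its 214 nuclei with no UMI of Syt1, Rgs9 or Pde10a, Gria2 was at 1706 CPM (1762 in all nuclei of the cluster), Gria4 at 533 (620), Gria3 at 257 (435) and Grin3a at 154 (199). Grin2b was at 30.2 (496) and Gria1 at 33.3 (301). Astrocytes without such UMIs kept Gria2 at 959, Grin2c at 216, Grin2b at 185, Gria1 at 105 and Grin3a at 51.8 CPM. Oligodendrocytes without them kept Gria4 at 216. This subset of nuclei was chosen after seeing the data.

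Endothelium, ependyma and mural cells held the broadly detected members at about the share of the neuronal reference genes. Grin1 there stood at 36.4%, 37.5% and 64.4% of its projection-neuron level, and Gria2 at 37.7%, 36.3% and 65.0%. Mural cells without the 3 neuronal UMIs had 177 CPM of Gria2 and 88.7 of Grin2b, against 1390 and 1222 in all mural cells. Fibroblasts had 355 ± 107 CPM of Gria3 in 132 nuclei, and 238 CPM (35 counts) in the 84 nuclei without neuronal UMIs. The Unknown cluster, in which Dcx, Sox11 and Top2a had their highest level, had 768 CPM of Gria2 and 436 of Grin2b, with Grin2a at 11.4 ± 5.69, the level of macrophages.

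For each member, the 2 genes whose log2 (CPM + 1) followed it most closely over the 18 clusters are a description, since clusters share libraries and differ in depth. Among 13159 genes they were Sptbn4 (Pearson r 0.988) and 5330417C22Rik (0.983) for Grin1 and Neto1 (0.969) and Dlgap2 (0.961) for Grin2a, and Ccdc92b was among them for Grin2b. Neto1 is an auxiliary protein of kainate receptors, and Dlgap2 a scaffold of the postsynaptic density. Grin2c was followed by Rrp8 (0.939) and Slc7a10, Grin2d by Lmbrd2 (0.889) and Bscl2 (0.886), and Grin3a by Dner (0.879) and Tmem9 (0.850). Gria1 was nearest to Grin1 (0.971) and Ksr2 (0.968), Gria2 to Syn2 (0.961) and Scn8a (0.958), Gria3 to Scn2a (0.95) and Rbfox1 (0.948), and Gria4 to Ppfia2 (0.959) and Xkr4 (0.941). Slc7a10 carries serine in astrocytes.

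The next comparison asked how the neuron clusters of the same 32 mice differ, with counts summed per mouse and cluster and each cluster set against Drd1+ neurons with the mouse as a block. Values are log2 differences ± standard error (SE) from edgeR's quasi-likelihood test with Benjamini-Hochberg adjustment, and levels are CPM of raw counts. The authors made the clusters from the same RNA, so these p-values describe the spread between mice and do not test the clusters. All the neuron clusters shared a single edgeR fit, so an SE reflects the scatter of all of them and not only of the pair compared. Grin2c was too low to be tested.

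Drd2+ and Drd1+ neurons differed in 2 of 9 tested members by edgeR's test and in 7 by DESeq2's, which added Grin1, Grin2a, Grin2b, Gria1 and Gria2, all with small differences. DESeq2 called 3133 of 11937 genes. Its fit held only these 2 clusters, while edgeR's held the other neuron clusters too, so the counts differ by more than the test. Gria4 was lower in Drd2+ neurons in 32 of 32 mice (558 against 678 CPM, log2 -0.27 ± 0.07, adjusted p = 0.00200). Gria3 was higher in 29 of 32 (845 against 791 CPM, log2 0.12 ± 0.04, adjusted p = 0.0165), a call lost when batch 2 or batch 4 was left out (adjusted p = 0.0505 and 0.0842). Of all 10825 genes that edgeR tested, 23.8% were called, 10.9% higher and 12.8% lower. The median over members was 0.03 and that over all genes 0.00. Grin2b was at 1740 against 1829 CPM and lower in 30 of 32 mice (log2 -0.05 ± 0.04), not called by edgeR but called by DESeq2 (adjusted p = 1.24e-06).

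Drd1+ neuron_2 differed from Drd1+ neurons in 7 of 9 members, 3 higher and 4 lower, where 43.6% of all genes were called (21.5% higher and 22.2% lower). Grin2a was higher in 32 of 32 mice (1115 against 622 CPM, log2 0.77 ± 0.05, adjusted p = 2.41e-26), and Grin2b was lower in 32 of 32 (log2 -0.82 ± 0.05, adjusted p = 4.65e-37). Grin2b ran from 851 to 1317 CPM in the first cluster and from 1667 to 2051 in the second, with no overlap among mice. Grin3a was higher (50.3 against 3.71 CPM, log2 3.62 ± 0.24, adjusted p = 1.40e-25), while Gria3 (log2 -0.72 ± 0.05) and Gria2 (-0.30 ± 0.04) were lower in every mouse. The calls of Grin1 (0.11, adjusted p = 0.0134) and Gria4 (-0.20, adjusted p = 0.0294) were small, and each was lost under at least 1 alternative. The Grin1 difference turned to -0.0255 without an expression filter, where the median of all genes was -0.14.

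Nxph1+ interneurons differed in all 9 tested members, 4 higher and 5 lower, with 55.8% of all genes called (27.2% higher and 28.6% lower). Grin3a (99.3 against 3.71 CPM, log2 4.47 ± 0.22), Grin2d (29.3 against 4.05, log2 2.65 ± 0.18) and Gria4 (2200 against 678, log2 1.42) were the large increases, seen in 32, 30 and 32 of 32 mice. Gria1 rose by 0.16 ± 0.05 (adjusted p = 0.00578), a call lost without batch 1 (0.11, adjusted p = 0.115). That difference was -0.0296 without an expression filter, with the median of all genes then at -0.14. Grin2a fell by 1.35, Grin2b by 1.22, Gria3 by 0.76, Grin1 by 0.66 and Gria2 by 0.56 on the log2 scale. The medians over members were -0.11 for Drd1+ neuron_2 and -0.56 for Nxph1+, beside 0.01 over all genes in both.

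**Figure D2:**
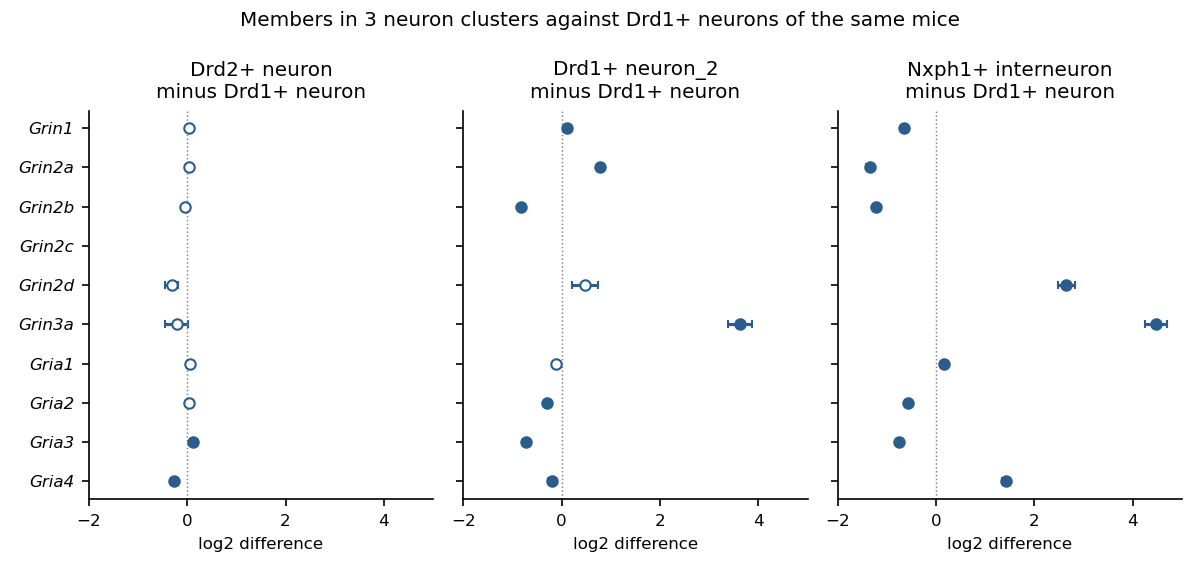
Log2 difference from Drd1+ neurons for the 9 tested members in the 3 other neuron clusters, with SE bars from the edgeR fit over 32 mice. Drd2+ neurons lie between -0.31 (Grin2d, not called) and 0.12 (Gria3), while Nxph1+ interneurons reach 4.47 for Grin3a and -1.35 for Grin2a.

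The strain comparison asked whether a member differed among the 8 strains within a cluster. Counts were summed per mouse, 9 clusters had enough mice, and the test was edgeR's quasi-likelihood F test with batch as a term and Benjamini-Hochberg adjustment over all genes of the cluster. The span is the log2 distance between the highest and lowest fitted strain. From here on a mouse's CPM uses TMM-scaled totals of the genes kept, so these values run higher than the raw CPM above in shallow clusters. Each mouse is a separate animal, and the 4 mice of a strain are its replicates.

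In Drd1+ neurons 7 of 9 tested members differed among strains, beside 61.7% of all genes, and in Drd2+ neurons 7 of 9 beside 55.9%. The called members were Grin2a, Grin2b, Grin2d, Grin3a, Gria1, Gria3 and Gria4 in both. Leaving out 1 batch gave 5 to 7 called in Drd1+ and 5 to 6 in Drd2+ neurons. Calls of all genes fell too, from 8283 to between 6636 and 7411 in Drd1+ neurons. In Drd2+ neurons they fell from 7153 to between 5595 and 6279. The Grin2d call in Drd2+ neurons was lost without any 1 of the batches (adjusted p = 0.0707 to 0.174) and by DESeq2 (adjusted p = 0.0608), and that in Drd1+ neurons without batch 2 or 4 (adjusted p = 0.0911 and 0.0691). Grin1 and Gria2 were not called: their spans in Drd1+ neurons were 0.21 (adjusted p = 0.319) and 0.15 (adjusted p = 0.210). The members' median span was 0.33 in Drd1+ and 0.35 in Drd2+ neurons, narrower than 0.65 and 0.64 over all genes. Astrocytes had 5 of 8 members called beside 21.5% of genes (median span 0.98 against 0.74), Drd1+ neuron_2 4 of 8 beside 17.3% (0.55 against 0.74) and oligodendrocytes 2 of 7 beside 34.8% (0.55 against 0.68).

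In 4 clusters edgeR called 0 members. These were macrophages (2 tested, 24.8% of genes called), Nxph1+ interneurons (8 tested, 1.53%), endothelium (7 tested, 3.23%) and the Polydendrocyte/Oligodendrocyte cluster (8 tested, 1.24%). At an unadjusted edgeR p under 0.05 there were 2 members in endothelium, beside 720 of 4986 genes, and 0 in the other 3. Those had 1295 of 3858 genes (macrophages), 543 of 3987 (Nxph1+) and 251 of 2099 (Polydendrocyte/Oligodendrocyte) at that threshold. DESeq2 called 0 members in all 4, beside 820, 109, 241 and 75 genes in the order first given. By edgeR the lowest adjusted p-values of members were 0.562, 0.491, 0.176 and 0.427.

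Gria4 in oligodendrocytes had the widest strain difference of any member in any tested cluster. The 4 PWK/PhJ mice had 15.5, 18.2, 18.2 and 10.7 CPM, 30 counts in 1249 nuclei. The other 28 mice had 120 to 358 CPM with a median of 251, so no mouse of another strain came near. The span was 4.47 (adjusted p = 1.88e-36), and the other strains' mean was 15.1 times that of PWK/PhJ, a ratio limited by the background in PWK/PhJ described next. Among those strains the means ran from 149 ± 22.0 (SD, n = 4) in CAST/EiJ and 173 in 129S1/SvImJ through 197 ± 62.3 in NZO/HlLtJ, 248 in A/J and near-equal values in WSB/EiJ (274) and NOD/ShiLtJ (276) to 340 ± 14.0 in C57BL/6.

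The same pattern held in shares of nuclei. After thinning to 1000 UMIs, 1.42 ± 0.262% of PWK/PhJ oligodendrocytes had a Gria4 UMI, against 9.71% to 25.0% in mice of the other strains and 1.95% in macrophages and 1.32% in astrocytes of all strains. The PWK/PhJ share was therefore at background. In oligodendrocytes without any UMI of the 3 neuronal and 3 precursor markers, PWK/PhJ mice had 0 to 13.0 CPM (12 counts in 871 nuclei) and the others 114 to 349, a ratio of means of 31.6. This alternative was chosen after seeing the data.

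In neurons and precursors PWK/PhJ Gria4 overlapped the other strains. It was 670 ± 41.5 CPM in Drd1+ neurons (other mice 473 to 928), 614 ± 46.3 in Drd2+ neurons, 2914 in Nxph1+ interneurons and 706.5 ± 121 (SD, n = 3) in the Polydendrocyte/Oligodendrocyte cluster, where 24 other mice had 492 to 1843. In that cluster PWK/PhJ had the lowest strain mean, from 84 counts in 57 nuclei, and edgeR's strain term was not called (adjusted p = 0.934). In oligodendrocytes, summed neuronal reference genes ran from 512 to 601 (PWK/PhJ 538 ± 198), and precursor markers reached at most 19.4 (PWK/PhJ 17.2). The summed Nxph1+ marker list was higher in CAST/EiJ (289 ± 26.4) and PWK/PhJ (231 ± 36.8) than in the other 6 strains (145 to 166). These are the 2 strains with the lowest Gria4. Over all oligodendrocytes that sum was mostly Sst (73.1 CPM), Kit (46.6) and Npy (41.0), with Nxph1 itself at 4.28. Summed astrocyte markers were 789 ± 142 in PWK/PhJ and 575 to 707 in the other strains. The part of these markers in the Gria4 result was not tested.

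**Figure D3:**
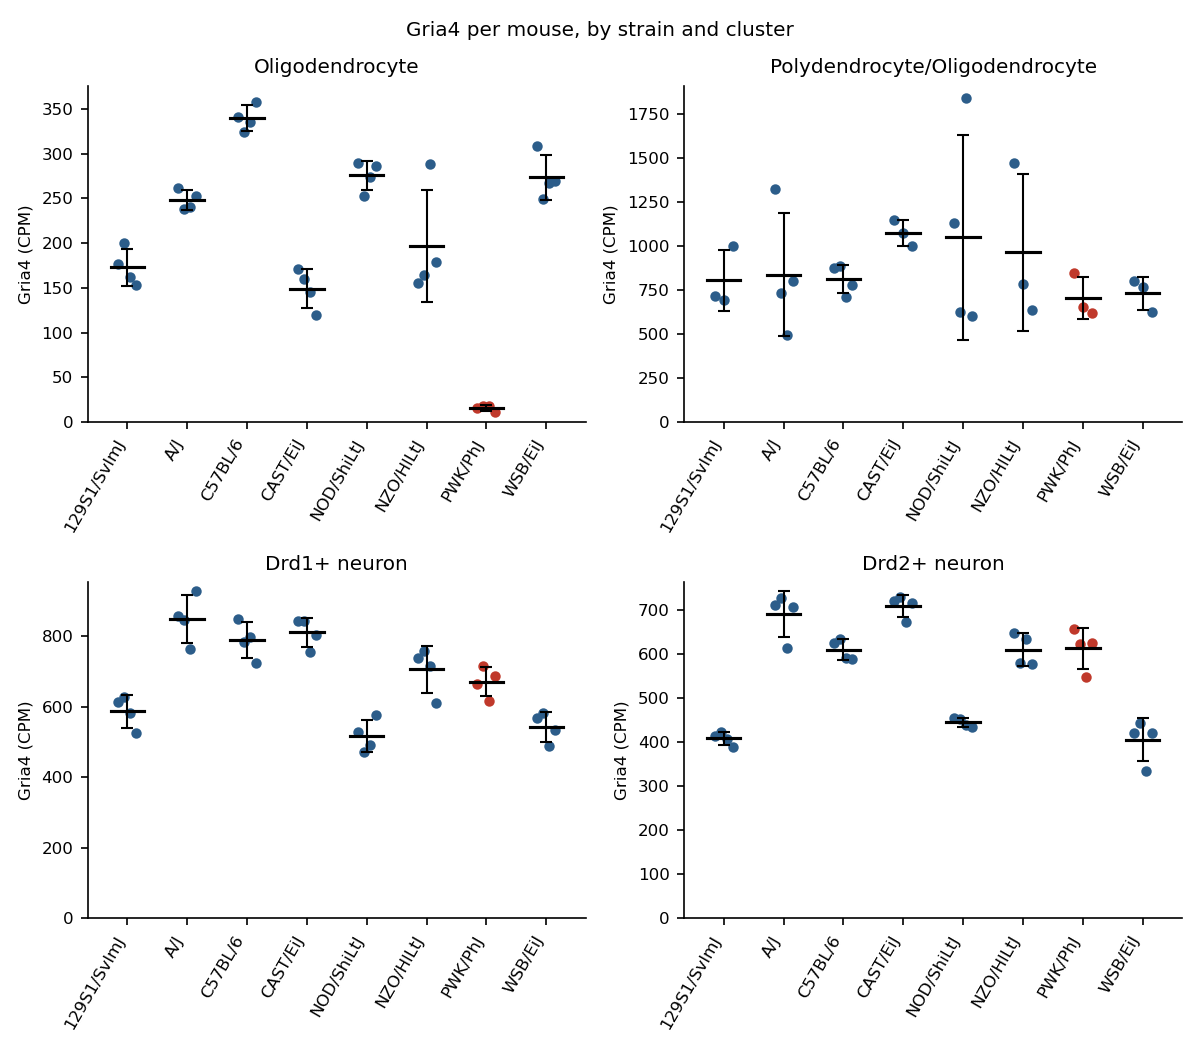
Gria4 per mouse by strain in oligodendrocytes, the Polydendrocyte/Oligodendrocyte cluster, Drd1+ neurons and Drd2+ neurons, as TMM-scaled CPM, with bars for the mean ± SD over the mice of a strain. PWK/PhJ oligodendrocytes lie at 10.7 to 18.2 CPM and all other mice at 120 or above, while in neurons 129S1/SvImJ, NOD/ShiLtJ and WSB/EiJ are the low strains.

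In projection neurons Gria4 differed among strains in another way. In Drd2+ neurons the 12 mice of 129S1/SvImJ, NOD/ShiLtJ and WSB/EiJ had 334.5 to 455 CPM (median 422), and the 20 mice of the other 5 strains had 548 to 729 (median 635), with no overlap. In Drd1+ neurons the same strains had 473 to 627 (median 551) against 610 to 928 (median 761), with some overlap. These strains were grouped after their values were seen, and this split carries no test. The strain term itself gave a span of 0.81 in Drd2+ neurons (adjusted p = 4.78e-17) and 0.71 in Drd1+ neurons (adjusted p = 6.29e-13).

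A further contrast compared 1 strain at a time with the average of the remaining 7, in both projection neuron clusters. In Drd1+ neurons this contrast called 34.3% of genes for PWK/PhJ, 32.8% for CAST/EiJ, 19.7% for NZO/HlLtJ, 17.2% for A/J, 17% for WSB/EiJ, 15.9% for NOD/ShiLtJ, 13.9% for C57BL/6 and 12.3% for 129S1/SvImJ. In Drd2+ neurons the shares were 30.3%, 28.1%, 18.5%, 15.2%, 15.3%, 12.1%, 11.1% and 11.1% in the same order. Of the 72 member-by-strain contrasts, 16 were called in Drd1+ and 18 in Drd2+ neurons. For 12 the call was made in both clusters, always in 1 direction, and both clusters were drawn from the same animals.

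Gria4 was the member called most often. In Drd1+ neurons it was higher in A/J (log2 0.38 ± 0.05, adjusted p = 2.33e-07), CAST/EiJ (0.31) and C57BL/6 (0.26) and lower in NOD/ShiLtJ (-0.43 ± 0.06, adjusted p = 1.17e-07), WSB/EiJ (-0.36) and 129S1/SvImJ (-0.23). In Drd2+ neurons it was called in all 8 strains, higher in CAST/EiJ (0.42), A/J (0.38), PWK/PhJ (0.18), NZO/HlLtJ (0.18) and C57BL/6 (0.17) and lower in WSB/EiJ (-0.50 ± 0.05, adjusted p = 4.52e-10), 129S1/SvImJ (-0.49) and NOD/ShiLtJ (-0.35). The calls for PWK/PhJ, NZO/HlLtJ and C57BL/6 in Drd2+ neurons were each lost when batch 1 was left out (adjusted p = 0.0568, 0.0807 and 0.0761). The NZO/HlLtJ call was also lost without batch 3 (adjusted p = 0.14) and the C57BL/6 call without batch 2 or 3 (adjusted p = 0.103 and 0.0585). With no expression filter the PWK/PhJ and C57BL/6 calls were lost (adjusted p = 0.0643 and 0.0519). Drd1+ neuron_2 ranked the strains otherwise, with NOD/ShiLtJ highest at 961 ± 165 CPM and CAST/EiJ lowest at 542 ± 46.9 (adjusted p = 0.000195).

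The strain difference in Gria4 itself differed between the projection neuron types. In a fit with a strain-by-cluster term and the mouse as a block, where 4.58% of all genes were called, Gria4 was the only one of the 9 tested members called (span 0.39, adjusted p = 1.89e-08). The lowest adjusted p of the other 8 was 0.588. The log2 difference Drd2+ minus Drd1+ was -0.52 ± 0.07 (SD, n = 4) in 129S1/SvImJ, -0.42 ± 0.09 in WSB/EiJ and -0.37 ± 0.07 in C57BL/6. It was -0.29 ± 0.08 in A/J, -0.22 ± 0.15 in NOD/ShiLtJ, -0.22 ± 0.13 in NZO/HlLtJ, -0.19 ± 0.03 in CAST/EiJ and -0.13 ± 0.09 in PWK/PhJ. All strains thus went the same way and differed in size. Without the mouse block the call was lost (adjusted p = 0.124).

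Gria3 was low in PWK/PhJ projection neurons. In Drd1+ neurons the 4 PWK/PhJ mice had 667, 590, 651 and 648 CPM, and the other 28 had 746 to 924 (median 810). In Drd2+ neurons they had 757, 653, 730 and 709 against 786 to 978 (median 855). PWK/PhJ mice were below every other mouse in both clusters, by log2 -0.36 ± 0.04 (adjusted p = 1.32e-08) and -0.29 ± 0.05 (adjusted p = 7.84e-06). Gria3 is X-linked, and the sex of each mouse was not used here. The Gria3 calls of C57BL/6 in Drd1+ neurons (0.16) and CAST/EiJ in Drd2+ neurons (0.13) did not hold: the first was lost without batch 1 or 3 (adjusted p = 0.103 and 0.0557) and the second without any 1 of the batches (adjusted p = 0.0618 to 0.151).

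Grin3a was high in the same strain, at a low level. Macrophages held 13 Grin3a counts over all strains, too few for a background by strain. Their strain means ran from 0.858 CPM in A/J to 10.3 ± 20.6 in CAST/EiJ, with PWK/PhJ at 10.1. CAST/EiJ Drd1+ neurons had 2.74 CPM. PWK/PhJ Drd1+ neurons had 9.78, 13.5, 7.16 and 12.3 CPM (131 counts), and the other 28 mice had 0 to 7.96 (median 2.07), overlapping in 1 PWK/PhJ mouse. PWK/PhJ Drd2+ neurons had 8.77, 11.2, 6.64 and 7.14 CPM against 0.495 to 5.64 (median 2.27), with no overlap. The contrasts were 2.08 ± 0.28 (adjusted p = 4.13e-07) and 1.84 ± 0.24 (adjusted p = 3.92e-08). Grin3a is abundant in interneurons, and the summed interneuron markers of the Nxph1+ list ran from 36.5 to 43.0 CPM over strains in Drd1+ neurons, with PWK/PhJ at 40.5. Summed over the 3 Chat+ markers, PWK/PhJ was highest, at 11.4 CPM against 1.68 to 7.98 in Drd1+ neurons. In Drd2+ neurons it had 17.8 against 3.78 to 11.7. Over all strains that sum was mostly Chat itself, at 5.79 and 7.55 CPM, with Slc5a7 at 0.423 and 0.688. Chat+ nuclei had more Slc5a7 (703 CPM) than Chat (351). The part of these markers in the result was not tested. Grin3a was also called lower in C57BL/6 Drd1+ neurons (-1.41, lost without batch 1, 2 or 4, adjusted p = 0.0922 to 0.162) and in A/J Drd2+ neurons (-1.07, lost without batch 1 or 2, adjusted p = 0.0648 and 0.0962). In Drd1+ neuron_2 Grin3a was highest in CAST/EiJ (117 CPM), then PWK/PhJ (89.3), and lowest in C57BL/6 (29.2, adjusted p = 9.15e-06).

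**Figure D4:**
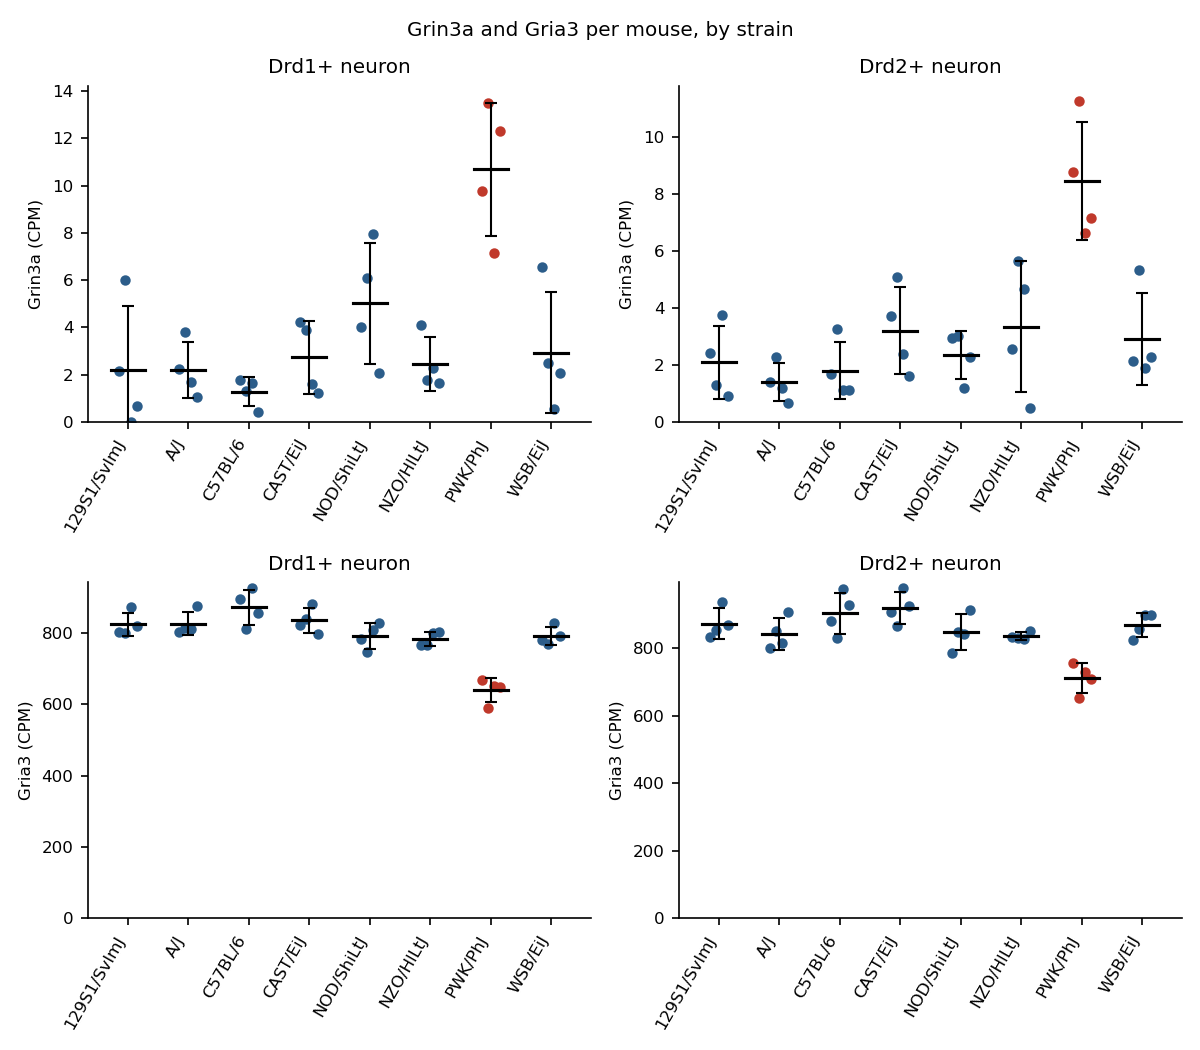
Grin3a (upper) and Gria3 (lower) per mouse by strain in Drd1+ and Drd2+ neurons, as TMM-scaled CPM, with bars for the mean ± SD of 4 mice. PWK/PhJ (red) has the highest Grin3a mean in both clusters (10.7 and 8.45 CPM) and lies below all other mice in Gria3 (590 to 667 and 653 to 757).

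The remaining members had smaller differences or low counts. Grin2b was highest in A/J in both clusters (log2 0.18 ± 0.04, adjusted p = 0.00112, and 0.22 ± 0.04, adjusted p = 0.000103), with 1996, 2126, 1978 and 2091 CPM in Drd1+ neurons. NOD/ShiLtJ was lowest at 1718 ± 34.0. Gria1 was higher in 129S1/SvImJ in both (0.20 and 0.17), higher in CAST/EiJ in Drd1+ neurons (0.17), lower in NZO/HlLtJ in both (-0.14 and -0.18), and lower in NOD/ShiLtJ in Drd2+ neurons (-0.18, 968 ± 28.5 CPM), but each of these Gria1 calls was lost when some 1 batch was left out. The 129S1/SvImJ calls were lost without batch 2 or batch 4 in both clusters, the Drd2+ difference falling to 0.0598 (adjusted p = 0.6) without batch 4. The CAST/EiJ call was lost without batch 1 (adjusted p = 0.0594), the NZO/HlLtJ call in Drd1+ neurons without any 1 of the batches (adjusted p = 0.0633 to 0.173) and that in Drd2+ neurons without batch 1 or 2 (adjusted p = 0.0888 and 0.0989). The NOD/ShiLtJ call was lost without batch 2 (adjusted p = 0.148). Grin2a was lower in NZO/HlLtJ Drd2+ neurons (-0.25 ± 0.07, adjusted p = 0.00623), a call lost without batch 3 (adjusted p = 0.084). Its strain term in Drd1+ neurons (span 0.33, adjusted p = 0.0451) was lost without batch 2 or 3 (adjusted p = 0.114 and 0.163), and that in Drd2+ neurons without batch 3 (adjusted p = 0.126). Grin2d, with 401 and 250 counts in the clusters, was higher in PWK/PhJ (0.88 ± 0.22 and 0.84 ± 0.29), at 6.66 against 3.67 CPM in Drd1+ neurons. The Drd2+ call was lost without batch 1, 2 or 4 (adjusted p = 0.065, 0.0937 and 0.113). Over all strains Grin2d in these clusters (3.96 and 3.14 CPM) was below its level in macrophages (5.45, from 21 counts). That level need not be the background of the deeper projection neurons. Chat+ interneurons had 29.8. The sum of the Chat+ markers, mostly Chat itself, was highest in PWK/PhJ in both clusters, as given above. Its part here was not tested either. Grin2d was also called lower in A/J Drd1+ neurons (-0.69), a call lost without batch 2, 3 or 4 (adjusted p = 0.387, 0.118 and 0.0822).

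Within each library, count ratios of subunits do not depend on scaling. The Grin2a to Grin2b ratio differed among strains in Drd1+ neurons (permutation test of 100000 resamples within batch, p = 0.00029, adjusted over 4 tests 0.00058) and in Drd2+ neurons (p = 0.00011, adjusted 0.00044). It was lowest in A/J (0.271 and 0.288) and highest in NOD/ShiLtJ (0.393 and 0.413). The Gria1 to Gria2 ratio also differed in Drd1+ neurons (permutation p = 0.00087, adjusted 0.00087), from 0.443 in C57BL/6 to 0.565 in 129S1/SvImJ. In Drd2+ neurons it ran from 0.437 in NZO/HlLtJ to 0.574 in 129S1/SvImJ (permutation p = 0.00059, adjusted 0.000787), a call lost without batch 2 (permutation, adjusted p = 0.0578). Permuted with no regard to batch, the Gria1 to Gria2 ratio was not called in either cluster (adjusted p = 0.147 and 0.169).

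**Figure D5:**
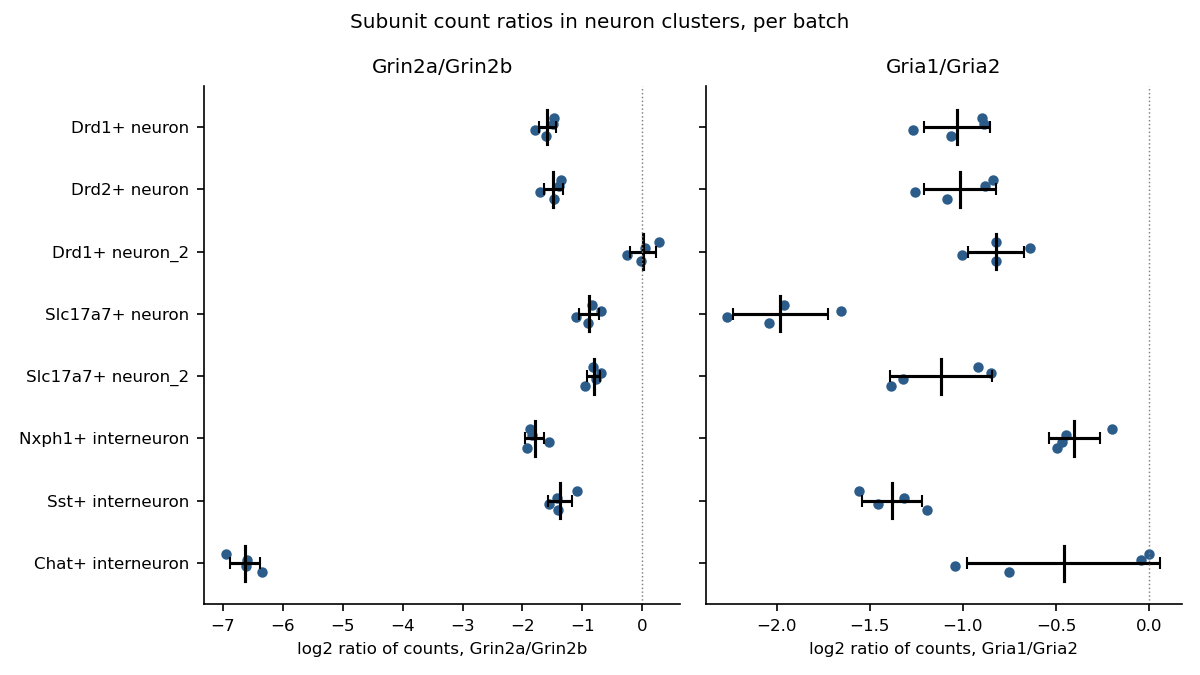
Log2 count ratios Grin2a to Grin2b and Gria1 to Gria2 in the named neuron clusters, with points for the 4 batches and bars for their mean ± SD. Mean log2 Grin2a to Grin2b runs from -6.63 in Chat+ interneurons to 0.01 in Drd1+ neuron_2. Mean log2 Gria1 to Gria2 runs from -1.98 in Slc17a7+ neurons to -0.40 in Nxph1+ interneurons.

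Astrocytes had 5 members that differed among strains, led by Grin3a and Grin2b. Grin3a was highest in NOD/ShiLtJ at 99.4 ± 29.9 CPM (SD, n = 4) and NZO/HlLtJ at 92.2 ± 14.0, and lowest in CAST/EiJ at 15.8 ± 12.1 (adjusted p = 3.20e-09). Grin2b was highest in PWK/PhJ, where the mice had 265, 268, 370 and 350 CPM, and lowest in NOD/ShiLtJ with 142, 207, 87.8 and 106 (adjusted p = 1.42e-08). Summed neuronal reference genes in PWK/PhJ astrocytes were the lowest of the strains, 980 against up to 1390 CPM. That sum is uneven: over all astrocytes Meis2 stood at 44.3% and Ppp1r1b at 83.2% of their projection-neuron level, where the median of the 7 genes was 7.69%. The part of neuronal RNA in the Grin2b result was not tested. Summed precursor markers ran from 11.3 CPM in CAST/EiJ to 65.2 in C57BL/6, and their part in the Grin3a result was not tested.

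Gria2 in astrocytes ran the other way from Grin2b in NOD/ShiLtJ, which was highest at 1277 ± 213 CPM, with NZO/HlLtJ lowest at 708 ± 179 (adjusted p = 1.11e-05). Grin2c, the astrocyte member, was 308 ± 73.2 CPM in 129S1/SvImJ and 173 ± 45.2 in NZO/HlLtJ (adjusted p = 0.00193), a call lost without batch 2 (adjusted p = 0.180). Gria1 spread from 46.9 ± 17.1 CPM in WSB/EiJ to 151 ± 122 in A/J (adjusted p = 0.0120), where 1 A/J mouse had 330 and the others 57.05 to 114. That call was lost without batch 1 or batch 4 (adjusted p = 0.0721 and 0.144). In oligodendrocytes Gria2 was called with a span of 0.55 (94.8 CPM in CAST/EiJ, 137 in 129S1/SvImJ, adjusted p = 0.0322), near the level of macrophages and lost under most alternatives.

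In Drd1+ neuron_2, Gria1 was highest in CAST/EiJ at 1434 CPM and lowest in C57BL/6 at 891 ± 111 (adjusted p = 0.000346). Gria3 was highest in C57BL/6 at 666 CPM and lowest in PWK/PhJ at 421 ± 87.0 (adjusted p = 0.00831), and that call was lost without batch 1, 2 or 3 (adjusted p = 0.0697 to 0.0798).

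The wider glutamate receptor list held 63 genes that are not members: kainate and delta receptors, Grin3b, auxiliary subunits, scaffolds, kinases and phosphatases, serine racemase and D-serine oxidase, and RNA editing enzymes. It was drawn up with earlier results of these data known. In Drd1+ neurons 42 of 59 tested genes differed among strains, and in Drd2+ neurons also 42 of 59, against the 61.7% and 55.9% of all genes above. Their median spans were 0.49 and 0.52. By role, 13 of 17 AMPA auxiliary subunits, 12 of 20 scaffolds, 7 of 9 kinases and phosphatases and 5 of 7 kainate and delta receptors were called in Drd1+ neurons. Oligodendrocytes had 16 of 46 and astrocytes 14 of 44 called, beside 34.8% and 21.5% of all genes.

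The genes of that list with the widest strain spans in Drd1+ neurons were Shisa6, an AMPA receptor auxiliary protein, Camk2d, Olfm3, Adarb2, Grip1 and Camk2g. Shisa6 ran from 4.99 CPM in CAST/EiJ to 29.8 in WSB/EiJ (span 2.64, adjusted p = 1.20e-06), and Camk2d, a calcium/calmodulin-dependent kinase subunit, between CAST/EiJ, with 6.33, and NOD/ShiLtJ, with 29.7 (span 2.18). Olfm3, an AMPA receptor-associated secreted protein, was 50.6 in PWK/PhJ and 172 ± 27.9 in WSB/EiJ, whose mice were above all others. Adarb2, an RNA-editing enzyme relative, ran from 148 in C57BL/6 to 391 in PWK/PhJ. Grip1, the scaffold that binds the tails of GluA2 and GluA3, ran from 378 in C57BL/6 to 792 in NZO/HlLtJ (adjusted p = 2.90e-13), and Camk2g from 17.4 in PWK/PhJ to 35.8 in NOD/ShiLtJ.

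Between Drd2+ and Drd1+ neurons of the same mice, 30 of the 59 genes were called, 17 higher and 13 lower, beside 23.8% of all genes. Grik3, a kainate receptor subunit, was at 195 CPM in Drd2+ and 5.43 in Drd1+ neurons (log2 5.18 ± 0.07, adjusted p = 3.67e-80), higher in 32 of 32 mice. Homer2 (13.8 against 6.53 CPM) and Olfm3 (128 against 88.5) were also higher. Adarb2 was lower in every mouse (14.0 against 258 CPM, log2 -4.19 ± 0.18, adjusted p = 6.51e-39). Camk2d fell by 0.82 and was higher in 8 of 32 mice. Drd1+ neuron_2 and Nxph1+ interneurons had 43 and 49 of the 59 called, beside 43.6% and 55.8% of all genes. The kainate subunit Grik3 thus separated the projection neuron types by far more than any NMDA or AMPA member, of which Gria4 (-0.27) was the most distant among those called by edgeR.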

How the data were processed

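Nuclei of 32 striata were profiled in 4 pools (batches), each holding 1 mouse of all 8 strains, by a kit that reads RNA and accessible chromatin from the same nucleus. Per the submitters' processing notes, reads were handled with bcl2fastq 2.20.0.422 and Cell Ranger ARC 2.0.0 on mm10 (GRCm38). Per the deposited column descriptions, the authors assigned each nucleus to a strain by genotype with Demuxlet, removed doublets with DoubletFinder, filtered nuclei by genes and mitochondrial share, and named the clusters. The deposited RNA matrices hold whole-number UMI counts per gene and barcode. Only annotated nuclei were used, and a mouse is 1 strain in 1 batch.

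Counts were summed per mouse and cluster for libraries of at least 10 nuclei, in the 9 clusters with at least 3 mice of every strain. They were tested with edgeR 4.0.16 in R 4.3.3 (TMM scaling, filterByExpr by strain, robust quasi-likelihood fit, Benjamini-Hochberg adjustment over all genes of a test, threshold 0.05). Strain tests had batch as a term and cluster tests the mouse as a block. DESeq2 1.42.0 was an alternative. Levels, thinned shares, ratios and figures used Python 3.11.15, numpy 2.4.6, scipy 1.17.1, pandas 2.3.3 and matplotlib 3.10.9. The edgeR and ratio tests were checked on simulated data. The edgeR simulation gave every gene the same scatter and held no batch or mouse effect, so it did not check those terms. The batch numbers pair the samples because the labels make a batch 1 shared pool. In Drd1+ neurons, deviations from strain means over 9040 genes had a median correlation of 0.184 (-0.309 to 0.563) in 112 pairs of the same batch and -0.0694 in 336 pairs of different batches.

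The members, the gene lists and the tests were chosen with earlier results of these data known. All 10 members are named. Of the 63 listed genes, up to 6 called in Drd1+ neurons with the widest strain span, and up to 3 with the largest and 3 with the smallest called difference between Drd2+ and Drd1+ neurons, are named where they reach 10 CPM, except that some genes these rules select are not reported here. The labels' balance of sexes could not be used, since the table gives no sex per mouse, so the planned sex term was not run. The accessible-chromatin matrices were not analysed here beyond the peak positions, for which the sources used here give neither the nuclei nor the caller. PCR duplicates are removed by UMIs, and intervals cover counting error only.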

Additional observations from a re-analysis of the deposited data

Results flagged for a closer look

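Within a strain and cluster, the highest or lowest of 4 mice was compared with the others by Dixon's test. Of 232 such groups, 6 (2.59%) had a mouse set apart, where chance flags about 1 in 20 groups. In Drd1+ neurons 1 A/J mouse had 875 CPM of Gria3 and the others 804 to 813. In Drd2+ neurons 1 WSB/EiJ mouse had 5.35 CPM of Grin3a and the others 1.91 to 2.27. In oligodendrocytes 1 C57BL/6 mouse had 73.2 CPM of Gria2 and the others 118 to 126. In astrocytes 1 NZO/HlLtJ mouse had 240 CPM of Grin2c and the others 139 to 156.5, and 1 129S1/SvImJ mouse had 81.3 CPM of Gria1 and the others 149 to 161. In Drd1+ neuron_2, 1 NOD/ShiLtJ mouse had 716 CPM of Gria4 and the others 1020 to 1071.

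Strain differences in Gria4 were not the same in Drd1+ and Drd2+ neurons, with a span of 0.39 (log2) in the edgeR interaction test.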

How the results depend on the processing

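Of the alternative values of counts of calls, ratios and top clusters, 156 stayed on their side, 15 became weaker and 2 stronger. Among single genes 2314 stayed, 86 became weaker, 23 stronger and 2 reversed, and 3 levels moved. With no replicate block, the Gria1 to Gria2 ratio lost its call (adjusted p 0.147 in Drd1+ and 0.169 in Drd2+ neurons), 1 member was called in oligodendrocytes, 11 strain contrasts in Drd2+ neurons, 1 member between Drd2+ and Drd1+ neurons and 0 in the interaction (Gria4 adjusted p 0.124). Leaving out 1 batch in turn, the same quantities ran from 0.00236 to 0.0578 (the ratio in Drd2+ neurons, its call lost without batch 2), from 1 to 2 members in oligodendrocytes (1 without batch 1, 2 or 3), from 11 to 16 contrasts in Drd2+ neurons (11 without batch 1) and from 1 to 2 members between the projection neurons (1 without batch 2 or 4). Calls of all genes fell too. Oligodendrocytes had 3161 in the main fit, 2457 of 9082 with no replicate block and 2405 to 2807 without 1 batch. Between the projection neurons there were 2571 in the main fit, 1100 of 10825 with no block and 1976 to 2245 without 1 batch. The member lost in oligodendrocytes was Gria2, also under the non-robust fit (1) and the DESeq2 test (1), and the member lost between the projection neurons was Gria3. DESeq2, fitted to the projection neuron clusters alone, called 7 members between Drd2+ and Drd1+ neurons, beside 3133 of 11937 genes. With no expression filter, 1 member was called in endothelium (Gria1), beside 527 of 20631 genes. Grin1 in Drd1+ neuron_2 (-0.0255) and Gria1 in Nxph1+ interneurons (-0.0296) reversed against Drd1+ neurons, where the median of all genes was -0.14. The cause of these changes was not tested. The highest cluster changed only for Grin1, Gria1 and Grin2d. The 30-nucleus minimum could be fitted in 6 of 9 clusters.

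Over nuclei without neuronal or precursor UMIs, an alternative added after seeing the data, the other strains' mean of oligodendrocyte Gria4 was 31.6 times that of PWK/PhJ. Low counts limit Grin2c and Grin2d in neurons, and the small number of nuclei, 120 to 165, limits the Chat+, Sst+ and fibroblast clusters.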

Other observations

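Other glutamate receptor genes also differed among neuron clusters of the same mice, by the edgeR test against Drd1+ neurons. In Drd1+ neuron_2, 7 AMPA auxiliary subunits were higher and 5 lower of 17 tested, and 9 scaffold and traffic genes were higher and 7 lower of 20, beside 21.5% of all genes higher and 22.2% lower. In Nxph1+ interneurons all 7 kainate and delta receptor genes were called, 3 higher and 4 lower, and of 20 scaffold and traffic genes 6 were higher and 10 lower, beside 27.2% and 28.6% of all genes. Among glia, the strain term called 4 of 6 kainate and delta receptor genes in oligodendrocytes (median span 1.25) and 5 of 6 in astrocytes (0.89), where 34.8% and 21.5% of all genes were called.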
